A study of Homo sapiens with 9 samples.

Results

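The members described here are 241 transcription start regions whose distal nascent RNA signal was low in WT cells 3 h after UV, was back near the mock level in WT at 16 h, and was still low in STK19 knockout cells at 16 h. They were found among 7936 identifiers present in all 9 library files (9805 occurred in at least 1 file). Distal signal is the mean signal per 200-bp bin from 25 to 100 kb past the start, and a change is the difference in log2(signal + 0.25) between an irradiated library and the mock library of the same line. Of the 7936 identifiers, 3541 had a distal signal of 1 or more, averaged over the WT and knockout mock libraries. Of these, 831 changed by -0.8 or less in WT at 3 h and are called lost, and the members are those of the 831 that changed by -0.25 or more in WT at 16 h and by -0.8 or less in the knockout at 16 h. The members were thus chosen by these values, selected on WT and KO distal signal, which are given as a description. The readouts that the rule did not use are the rescue line and the first 25 kb.

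The assay was BrU-seq, which reads nascent RNA: cells take up bromouridine during a short pulse and an antibody to it isolates the labelled RNA for sequencing. All cells were RPE1, a human retinal pigment epithelium line, and every line carried an inducible Cas9 (iCas9) and the p53/puro double knockout (dKO) given in its label. The 3 lines were WT for STK19, STK19-KO (KO), and STK19-KO with an STK19-TY transgene (rescue), and no label says how many clones each line stands for or what drives the transgene. Each line was mock-treated or given 12 J/m2 of UV-C and pulsed with 2 mM bromouridine for 30 min. The samples are labelled 3 h and 16 h. Their characteristics place the pulse at 2.5 h and 15.5 h, whereas the treatment protocol places it after 3 h and 16 h. There was 1 library for each line and condition, so no difference between libraries had a replicate check, no test was made, and the spread given below is that between start regions.

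UV-C leaves lesions in the transcribed strand of DNA that halt RNA polymerase II. A polymerase that starts at the promoter has to pass every lesion before it, so distal parts of long transcription units lose nascent RNA first, and they regain it as lesions are removed and polymerases advance again. Lesions that halt polymerase are removed by transcription-coupled repair, in which CSB, CSA, UVSSA and TFIIH act at the stalled polymerase. STK19 is a factor of that pathway which joins the stalled complex, and cells with a defect in the pathway restore transcription poorly after UV.

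The identifiers are UCSC transcript names, and the files do not pair them with gene symbols. None of the 7936 matched the reference table used here, with or without the version, so gene names, positions, sequences and marker genes of the cell type were not analysed here. A window of 100 kb can run past the end of a transcription unit into its neighbours. Over the mean of the 9 libraries, 109 members had signal of at least 0.5 in each 5-kb window from 0 to 100 kb, and the median unbroken distance from the start was 90 kb. Signal was unbroken for 50 kb or more in 182 members and for less than 25 kb in 50, and 29 had a first 25 kb under 0.5, so that little signal joined their distal region to the start that names them. The flank from 100 to 25 kb upstream was at 1 or more in 100 members and under 0.5 in 114. Shared patterns of bin-to-bin differences between libraries showed that 31 members lay in windows that overlapped another member's, in 16 pairs, of which 14 were mirrored and 2 had the same orientation. The members therefore stand for 225 separate loci.

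The libraries differed in depth. Values in each were whole multiples of a smallest step, which was finest for the WT library of 16 h (0.373) and coarsest for the KO library of 3 h (4.88), a range of 13.1-fold. The distal signal of a member amounted to a median of 89 steps in KO at 3 h, 134 in rescue at 3 h, 200 in KO at 16 h and 2822 in WT at 16 h, with a lowest member of 7 steps in KO at 3 h and 13 in rescue at 3 h. The libraries had similar totals and appear to have been scaled by the authors, so a change is read as relative to the rest of its library. With such scaling, a fall in total RNA synthesis would not appear. In these bulk samples, fewer labelled cells and less labelled RNA per cell cannot be told apart. Over all 3541 identifiers the library median of the log2 distal level stood 0.32 above mock in WT at 16 h, 0.23 above in rescue at 16 h and 0.04 below in KO at 16 h (-0.04); at 3 h it differed from mock by -0.05 in WT, -0.26 in rescue and -0.16 in KO.

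The distal level of the 241 members set the WT and KO libraries apart as the rule requires. In WT mock it ran from 0.545 to 31.4 with a median of 1.96, at 3 h from 0.073 to 10.9 with a median of 0.616, and at 16 h from 0.486 to 33.1 with a median of 2.81. In KO mock it ran from 0.902 to 59.7 with a median of 2.86, at 3 h from 0.091 to 28.0 with a median of 1.16, and at 16 h from 0.226 to 23.0 with a median of 1.01. WT thus had its highest median at 16 h and KO its lowest. In rescue mock the level ran from 0.704 to 61.7 with a median of 2.40, at 3 h from 0.085 to 43.5 with a median of 0.872, and at 16 h from 0.252 to 60.8 with a median of 1.84. The rescue line was lowest at 3 h and stood between KO and WT at 16 h. The ranges of all 9 libraries overlapped, because members differ in level far more than libraries do, and the 10 strongest members held between 15.1% and 31.9% of the distal signal of all members.

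The members can be counted among the identifiers that WT lost and regained. Of the 831 identifiers lost in WT at 3 h (23.5% of the 3541), 507 changed by -0.25 or more in WT at 16 h. In KO at 16 h, 241 of those 507 changed by -0.8 or less, 206 lay between the thresholds and 60 changed by -0.25 or more. Of all 831, 497 (59.8%) changed by -0.8 or less in KO at 16 h. Such loss was less frequent among the 507 than among the 831, which describes values that the rule used. Over all 3541 identifiers, 68.1% met the WT criterion at 16 h and 20.8% met the KO criterion, and nothing is read from these shares since the rule used them. Another 166 of the 831 changed by -0.8 or less in both lines at 16 h, among 200 that did so in WT. With WT and KO exchanged in every criterion, the rule found 0 of the 610 identifiers lost in KO at 3 h. That 0 was not kept under every setting, with 20 identifiers where the loss threshold was -0.5 (436 members there), 6 with a distal region of 25 to 50 kb and 3 with 50 to 100 kb. Of the 831 lost in WT, 13 changed by -0.25 or more in KO at 16 h and by -0.8 or less in WT.

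**Figure D1:**
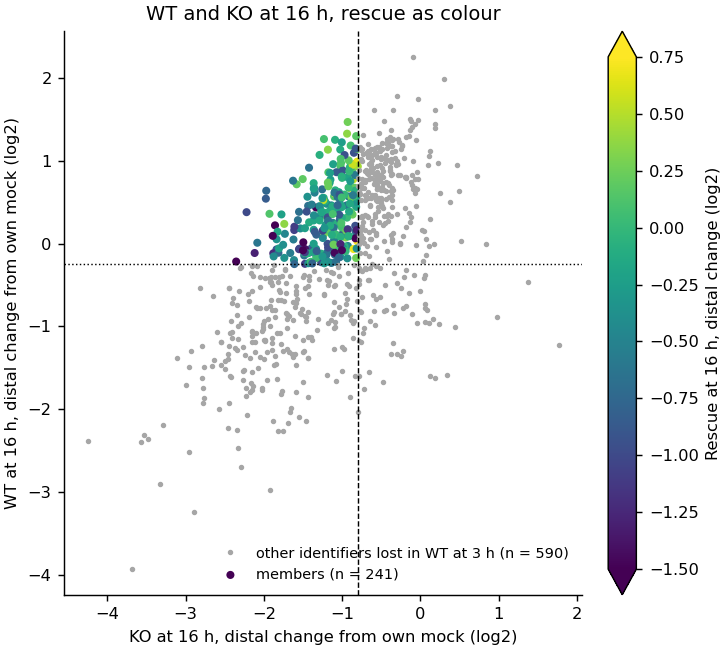
Distal change from own mock at 16 h in KO (x axis, log2) and WT (y axis, log2) for the 831 identifiers lost in WT at 3 h, each point 1 identifier. The 241 members lie left of the dashed line at -0.8 and above the dotted line at -0.25 by choice, and are coloured by the change in rescue, which was not used; 590 other identifiers are grey.

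The thresholds divide a continuous range. At the limit of -0.8 in WT at 3 h, the nearest member stood at -0.80 and the nearest identifier that failed only this criterion at -0.79, and 94 failed only there. At the limit of -0.25 in WT at 16 h the values were -0.25 inside and -0.26 outside, with 256 failing only there. The limit of -0.8 in KO at 16 h had -0.80 on both sides at 2 decimals, and 266 failed only there. At the mock minimum of 1, the nearest values were 1.003 inside and 0.941 outside, with 35 failing only there. More identifiers than there are members therefore missed membership by the KO criterion alone, and likewise by the WT criterion of 16 h alone.

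At 3 h the distal signal of the members was low in all 3 lines. The median change was -1.36 in WT (from -2.40 to -0.80), which the rule fixed, -0.99 in KO (from -2.30 to 0.55) and -1.11 in rescue (from -2.51 to 0.36), against medians of -0.04, -0.12 and -0.19 over all 3541 identifiers. In rescue, which entered no criterion, 199 of 241 members (82.6%) changed by -0.8 or less, where the background was 23.0% of all identifiers and 75.8% of the 831 lost in WT. In KO, 163 members (67.6%) changed by -0.8 or less, where the background was 17.2% of all identifiers and 58.4% (485) of the 831; the KO mock library entered the rule and the KO 3 h library did not. The members' shares thus lay well above the background and nearer those of the 831, which were all lost in WT. With each library's median matched to its own mock, the rescue share was 55.9%, among 145 members. No matched background is given here, so that share cannot be set against 23.0%.

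At 16 h the rescue line lay between WT and KO. The median change of the members was 0.29 in WT (from -0.25 to 1.47), -1.14 in KO (from -2.35 to -0.80) and -0.27 in rescue (from -1.93 to 1.21). In rescue, 116 of 241 members (48.1%) changed by -0.25 or more, where the background was 75.3% of all 3541 identifiers and 45.7% (380) of the 831 lost in WT. The members' share thus lay below that of identifiers in general and near that of the 831, which include them. Another 42 members (17.4%) changed by -0.8 or less in rescue, against a background of 11.3% and against 31.4% (261) of the 831. Above their rescue mock stood 58 members (24.1%), against 63.0% of all identifiers and 29.1% of the 831, and 3 of the 58 by 0.8 or more, where 14.6% of all identifiers did so.

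**Figure D2:**
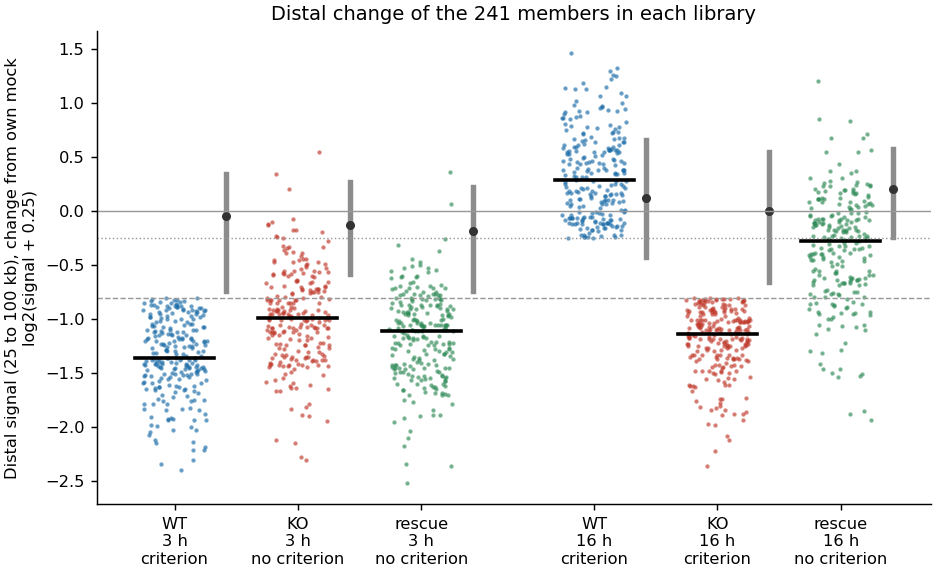
Distal change from own mock, log2(signal + 0.25), for each of the 241 members (points) in each irradiated library, with the median as a black bar; grey bars and dots give the quartiles and median of all 3541 identifiers. The dashed line is -0.8 and the dotted line -0.25, and the rescue medians are -1.11 at 3 h and -0.27 at 16 h, between WT at 0.29 and KO at -1.14 at the later time. The rule itself set WT and KO apart at 16 h.

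Scaling bears on how many members were back in rescue. With each library's median matched to its own mock, 31.0% of the 145 members found that way changed by -0.25 or more in rescue at 16 h, where 64.0% of all identifiers did, and the median change was -0.40. The mock libraries also differed. KO mock stood above WT mock in 210 of 241 members (87.1%, against 55.3% of all identifiers), by a median of 0.37 on the log2 scale (0.06 over all identifiers), rescue mock stood above WT mock in 175 (72.6%, against 48.9%) by a median of 0.27, and rescue mock differed from KO mock by a median of -0.15. A high mock level makes a change more negative, and both the WT and KO mocks entered the rule. Among the 165 members whose rescue mock lay within 1.5 times of both other mocks, the rescue median at 16 h was -0.23, 53.3% changed by -0.25 or more and 9.70% by -0.8 or less.

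Read as levels at 16 h, without the mocks, the same order appeared. The rescue level was above the KO level in 233 of 241 members (96.7%, against 61.9% of all identifiers), by a median of 0.72. It was above the WT level in 41 (17.0%, against 54.0%), with a median difference of -0.46. Over all 3541 identifiers the corresponding medians were 0.14 and 0.06. The change in rescue exceeded that in KO in 229 members (95.02%, against 64.8% of all identifiers and 85.8% of the 831) by a median of 0.91, against 0.25 over all identifiers and 0.62 over the 831. It exceeded that in WT in 23 (9.54%, against 53.3% of all identifiers), with a median difference of -0.63. WT and KO at 16 h were used for choice, which places the members' WT values high and their KO values low.

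Within the rescue line alone, 16 h can be set against 3 h with no mock. Distal signal was higher at 16 h in 223 of 241 members (92.5%, against 69.9% of all identifiers and 80.7% of the 831), with a median difference of 0.86 (from -1.38 to 2.45), against a median of 0.42 over all 3541 identifiers. The difference was 0.8 or more in 132 members (54.8%), where the background was 30.0%, and in 401 (48.3%) of the 831. In KO the same difference had a median of -0.25, and distal signal was higher at 16 h than at 3 h in 68 members (28.2%, against 60.7% of all identifiers), 2 of them by 0.8 or more, where the background was 9.43%. In WT the median was 1.66. Between the irradiated times most members therefore stood higher in rescue and lower in KO. The rule required WT to be low at 3 h and back at 16 h, and KO to be low at 16 h. The WT and KO differences thus follow in part from the choice, and only the rescue difference is held out. With library medians matched to mock, the rescue share at 0.8 or more was 22.1%. Matching shifts the background too, and no matched background is given here, so this share cannot be set against 30.0%.

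In rescue the members also lay between the set back in both lines and the set back in neither. Neither set borders the members in the rule. Between them and the members lie 206 identifiers with KO between the thresholds and 90 with WT between them. Among the 60 identifiers that were lost in WT at 3 h and back in both WT and KO at 16 h, 55 changed by -0.25 or more in rescue at 16 h, none by -0.8 or less, and the median was 0.51. Among the 166 that were back in neither line, 7 changed by -0.25 or more, 148 by -0.8 or less, and the median was -1.54. The member median was -0.27. The sets already differed in rescue at 3 h, with medians of -0.66, -1.11 and -1.56 in the same order of both, members and neither. From 3 h to 16 h in rescue, 43 of the 60, 132 of the 241 and 23 of the 166 were higher by 0.8 or more. Next to the limits themselves the rescue medians at 16 h lay closer together. At the KO limit of 16 h, the 20 nearest inside had -0.25 and the 20 nearest outside -0.17. At the WT limit of 16 h the corresponding medians were -0.41 and -0.72.

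**Figure D3:**
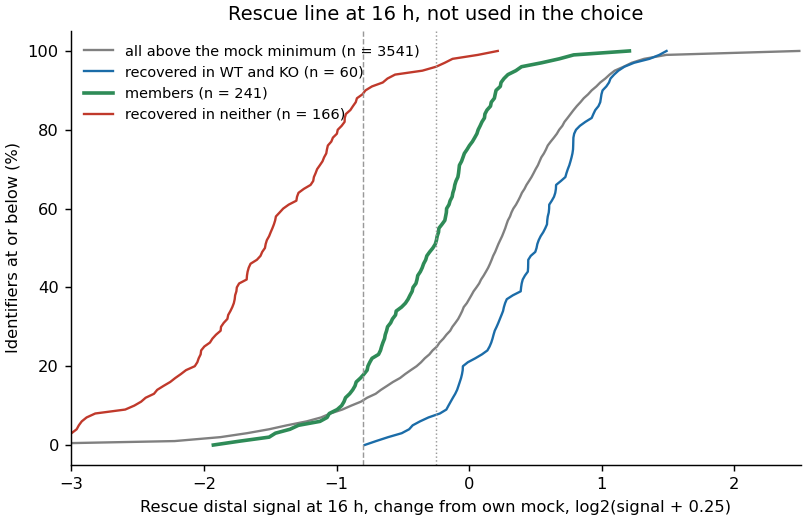
Share of identifiers (y axis, %) at or below each distal change in rescue at 16 h (x axis, log2(signal + 0.25) against own mock), a library not used in the choice. The curve of the 241 members (median -0.27) lies between that of the 166 identifiers back in neither line (-1.54) and that of the 60 back in both (0.51), and left of all 3541 (0.21); dashed and dotted lines mark -0.8 and -0.25.

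Members differed among themselves in how far rescue returned. The 121 members with the higher mock level had a median rescue change at 16 h of -0.18, and 55.4% of them changed by -0.25 or more, against -0.36 and 40.8% of the 120 with the lower level. The 109 members with signal along the whole 100 kb had a median of -0.17, and the other 132 a median of -0.34. For the 29 whose own start had little signal, the median was -0.35. In the 31 members whose WT mock was at least as high as the KO mock, the rescue median was -0.11, against -0.32 in the 210 others. With 1 member per locus the rescue median was -0.29 over 225 members.

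Members that stood higher in WT or KO tended to stand higher in rescue. Over the 241 members, the rescue change at 16 h had a Pearson r of 0.36 with the WT change and 0.39 with the KO change (Spearman rho 0.37 and 0.35). At 3 h the rescue change had an r of 0.52 with WT and 0.64 with KO. These are descriptions across start regions within single libraries, with no library in common between the lines, and 31 of the points share a locus. The rule cut the range of the WT change at both times and of the KO change at 16 h. The r values therefore describe the chosen range only, and none over other identifiers is given here.

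The values of 4 members follow, as mean distal signal per bin. They are the 2 with the highest mock signal among members that changed by -0.25 or more in rescue at 16 h, and the 2 highest among those that changed by -0.8 or less. In the order mock, 3 h and 16 h, the signal of uc002agn.4 was 31.4, 10.9 and 33.1 in WT. It was 49.3, 24.4 and 60.8 in rescue, and 34.7, 25.5 and 17.8 in KO. WT and rescue both returned to or above their mock at 16 h, and KO was lowest then. Signal of uc002agn.4 was unbroken for 70 kb only, and its upstream flank had a mean signal of 2.83. Its first 25 kb changed at 16 h by -0.89 in WT, -0.13 in rescue and -0.65 in KO. For uc002vex.5 the signal was 12.1, 6.66 and 14.8 in WT, 61.7, 43.5 and 55.2 in rescue, and 59.7, 28.0 and 23.0 in KO, in the same order. Its WT mock lay far below both other mocks, so its level in KO at 16 h was above that of WT at every time although its change was -1.36.

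The other pair stayed low in rescue. For uc002raj.5 the signal was 5.10, 1.68 and 4.68 in WT, 10.7, 3.55 and 4.44 in rescue, and 8.59, 4.32 and 2.15 in KO. Its rescue level at 16 h was close to that of WT, but the rescue mock was higher, which gives a change of -1.22. For uc032ruu.1 the signal was 3.90, 1.14 and 4.52 in WT, 6.06, 4.02 and 2.72 in rescue, and 5.72, 3.38 and 1.71 in KO. Here rescue was lower at 16 h than at 3 h, as KO was, with a rescue change of -1.09. Its upstream flank had a mean signal of 9.46, so signal was also present before its start.

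**Figure D4:**
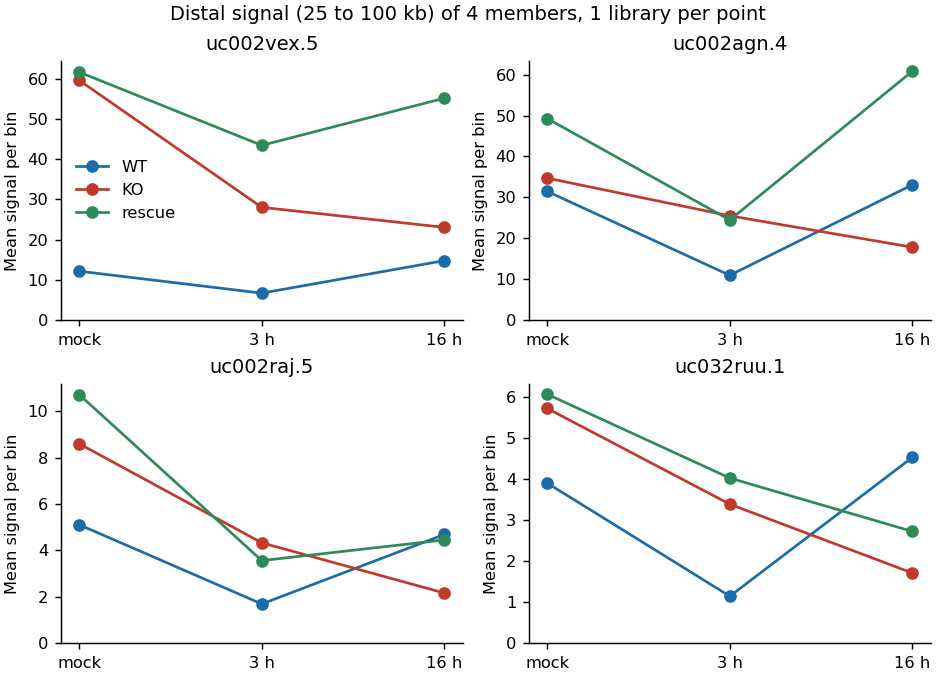
Mean distal signal per bin (y axis, from 25 to 100 kb, starting at 0) of 4 members in mock and at 3 h and 16 h (x axis), with 1 library per point and lines joining the libraries of WT, KO and rescue. In uc002vex.5 and uc002agn.4 rescue stands higher at 16 h than at 3 h, at 55.2 and 60.8; in uc032ruu.1 it stands lower, at 2.72 against 4.02.

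The first 25 kb entered no criterion. Its median level in mock, at 3 h and at 16 h was 3.16, 3.77 and 4.98 in WT, 3.27, 2.99 and 4.12 in rescue, and 3.61, 3.67 and 3.34 in KO. The median change at 3 h was 0.27 in WT, -0.01 in rescue and 0.03 in KO. At 16 h it was 0.34 in WT, 0.18 in rescue and -0.07 in KO, and the rescue value was -0.03 with library medians matched to mock. Over all 3541 identifiers the unmatched medians at 16 h were 0.09 in WT, 0.24 in rescue and 0.19 in KO. The members' median thus lay above that background in WT, slightly below it in rescue and below it in KO. At 16 h the first 25 kb was higher by 0.8 or more in 74 members in WT (30.7%, background 18.3%), 23 in KO (9.54%, background 21.7%) and 45 in rescue (18.7%, background 22.3%). It was lower by 0.8 or more in 21 members in WT (8.71%, background 11.4%), 70 in KO (29.0%, background 12.8%) and 31 in rescue (12.9%, background 8.08%). In WT and KO these readouts come from libraries that chose the members, and the mock of each line is shared by both regions.

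Within the first 25 kb the lines differed by position. In the 20 kb from 5 to 25 kb the median change at 16 h was 0.66 in WT, 0.10 in rescue and -0.24 in KO, against 0.16, 0.19 and 0.04 over all identifiers, so the medians of WT and KO lay apart in this stretch too. In the first 1 kb the order was turned. The median change there at 16 h was -0.18 in WT, 0 in rescue and 0.38 in KO, and 91 members in KO were higher by 0.8 or more (37.8%), close to the background of 37.0%. Higher signal at the start in KO was therefore about as frequent among all identifiers as among the members. From 1 to 5 kb, where polymerases have just left the promoter, the median change at 3 h was 0.55 in WT, 0.01 in rescue and 0 in KO, and 91 members in WT were higher by 0.8 or more (37.8%, background 26.6%).

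The signal along distance shows the same in more detail. Each member was given equal weight and the mean signal was divided by that of the same line's mock. At 3 h the ratio from 1 to 5 kb was 1.62 in WT, 1.28 in rescue and 1.16 in KO, and from 75 to 100 kb it was 0.243, 0.352 and 0.408 in the same order. From 0 to 1 kb it was 1.07, 1.09 and 1.37. The rule required a low WT distal signal at 3 h and set no such limit for KO or rescue, so the choice favours the lowest far ratio in WT. The first 5-kb window below mock at 3 h began at 15 kb in WT and at 10 kb in KO and rescue, and 17, 18 and 18 of 20 windows were below mock in the 3 lines.

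At 16 h the ratio was highest in WT and lowest in KO in each window from 5 kb onwards, and the order was the opposite in the first 1 kb. From 5 to 25 kb the ratio was 1.72 in WT, 0.998 in rescue and 0.693 in KO. From 25 to 50 kb it was 1.47, 0.802 and 0.433 in the same order, and from 75 to 100 kb it was 1.23, 0.761 and 0.349. WT had 1 of 20 windows below mock, the first, and peaked at 1.85 in the window from 15 kb. KO had 19 windows below mock, all but the first, and its ratio beyond 50 kb was lower than at 3 h. Rescue had 17 windows below mock, from 15 kb onwards, and its ratio was lowest, at 0.70, in the window from 70 kb. In the first 1 kb the ratio was 0.751 in WT, 1.08 in rescue and 1.64 in KO. Whether a window lies above or below 1 rests on how the libraries were scaled, but the shape along distance within a line does not.

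**Figure D5:**
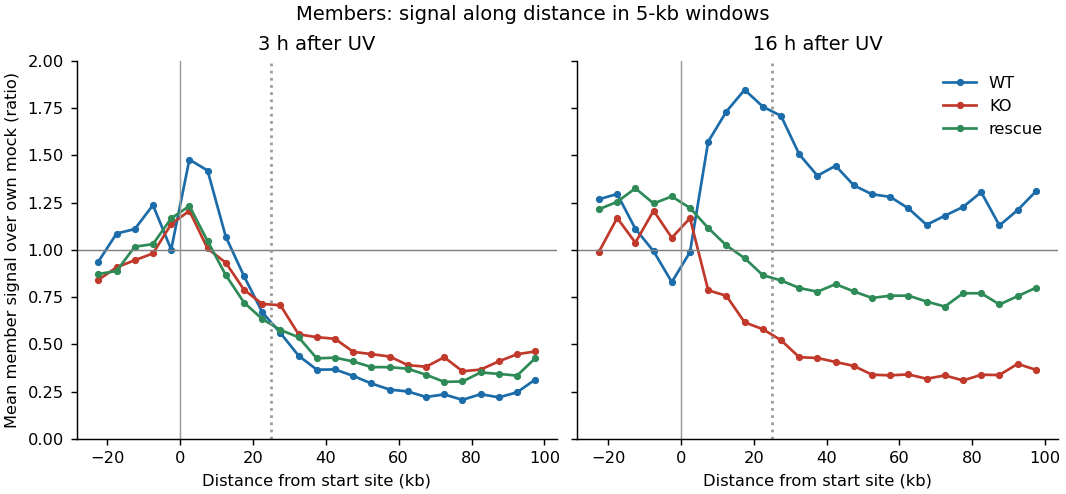
Mean signal of the 241 members, each weighted equally, over the mock of the same line (y axis, ratio) in 5-kb windows against distance from the start (x axis, kb) at 3 h and 16 h after UV; the dotted line at 25 kb marks where the region used for choice begins. At 3 h all lines fall with distance, to 0.243 in WT from 75 to 100 kb, and at 16 h WT lies at 1.23 there, rescue at 0.761 and KO at 0.349.

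The near share, the first 25 kb as a percentage of the signal from 0 to 100 kb, does not depend on the scale of a library. Its median in mock was 34.2% in WT, 31.7% in rescue and 32.1% in KO. In the same order it was 66.3%, 52.1% and 48.7% at 3 h, and 37.0%, 40.5% and 50% at 16 h. WT was therefore back near its mock share at 16 h, KO was still near its 3 h share, and rescue lay closer to WT. The median change at 16 h was 0.65 points in WT, 7.13 points in rescue and 16.8 points in KO, and over all 3541 identifiers it was 0.09, 0.58 and 1.03 points. The share was above mock at 16 h in 134 members in WT, 176 in rescue and 200 in KO, and in 1858, 2099 and 2061 of all 3541 identifiers. The WT count of members is thus near the share of all identifiers. In WT and KO the distal part of this share was used for choice, and only the rescue values are free of it.

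The upstream flank, from 100 to 25 kb before the start, was near mock in the median member. Its median change in members lay between -0.04 (rescue at 3 h) and 0.09 (rescue at 16 h) in the 6 irradiated libraries, and the latter was -0.14 with library medians matched. At 16 h it was higher by 0.8 or more in 42 members in WT (17.4%, background 12.4%), 21 in KO (8.71%, background 15.5%) and 39 in rescue (16.2%, background 13.0%). With each member weighted equally, the mean signal of this flank over mock was 1.31 in WT at 16 h, like the 1.3025 of the WT distal region, and 1.08 in rescue and 1.02 in KO. At 3 h the flank ratios were 1.02 in WT, 0.933 in rescue and 1.01 in KO, against 0.297, 0.392 and 0.458 in the distal region.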

How the data were processed

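Each library file deposited by the authors holds signal, that is coverage, at every start: per the file headers it has 1001 columns of 200 bp each. The near-equal sums show that the authors scaled the libraries to similar totals. Of software, the submitters' processing notes list R 4.0.5, HOMER 4.8.2, STAR 2.7.7a, Trim Galore 0.6.5 and FastQC 0.11.9, and of builds hg38 and GRCh38, without saying what each was for. Strand use and any spike-in are not given in the sources used here. Antisense signal therefore cannot be told apart. In the 14 mirrored pairs, starts of opposite orientation shared a pattern of signal. Distal signal there need not come from the strand of the start that names it. Values under 1e-06 in size were set to 0. Changes, medians and counts were computed with numpy 2.4.6 and pandas 2.3.3. The selection step was checked on simulated data with planted falls well past the loss threshold and equal mocks. That check does not bear on members near the limits or on mocks that differ between lines. With 1 library per group no test was made. Shared loci were called where the differences between libraries, in 200-bp bins and shifted or mirrored, correlated at 0.7 or more over at least 100 bins; this replaced a planned comparison of 1-kb means, which had joined unrelated windows with a single peak. Named members are the 2 highest in mock signal among those back, and among those not back, in rescue at 16 h. Gene lists and cell type markers were planned but need gene names. Averaged tables were not used. Members and lists were chosen with earlier results of these data known.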

Additional observations from a re-analysis of the deposited data

Results flagged for a closer look

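The first 25 kb of the members differed in direction between WT and KO at 16 h, with a median change of 0.34 in WT and -0.07 in KO. Over all 3541 identifiers the medians were 0.09 in WT and 0.19 in KO. The difference between WT and KO in the members was not tested, since each is 1 library. Both libraries had served to choose the members by their distal signal. Both medians depend on the settings. The KO median was 0.17 with a distal region of 50 to 100 kb, 0.092 with a loss threshold of -0.5, -0.33 with a pseudocount of 1 and -0.72 with a distal region of 25 to 50 kb. The WT median was above mock under every alternative run, from 0.021 with a pseudocount of 1 to 0.55 with a distal region of 50 to 100 kb.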

How the results depend on the processing

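No paired analysis was possible because each line and condition had 1 library. Of 201 values under 14 alternatives (15 results), 130 stayed close to the main value (counts within 1.5 times of it, medians and shares within their 95% intervals over members), and 71 moved. These intervals treat members as separate and say nothing of spread between libraries. The mean of 3 mocks returned the same 241 members, so its values over members could not move. No median of 0.25 or more in size turned sign, but smaller medians of the first 25 kb in KO and rescue and of the rescue flank did under some settings. The cause was not tested. Each figure in this paragraph is the value under the named setting. With a pseudocount of 1 there were 93 members, 14 identifiers back in both lines and 85 in neither; rescue at 3 h had a median of -0.97 and 68.8% at the loss threshold, rescue at 16 h had 10.8% at it and 39.8% higher than at 3 h by 0.8, KO at 3 h was -0.91, the first 25 kb at 16 h was 0.021 in WT, 0 in rescue and -0.33 in KO, and the rescue flank was 0.013. With a pseudocount of 0.1 the rescue median at 3 h was -1.22, the rescue flank 0.20 and 1 identifier met the exchanged rule, as did 3 with a mock minimum of 0.5. A mock minimum of 2 left 138 members, 23 back in both and 109 in neither, with KO at 3 h at -1.07; rescue at 16 h had a median of -0.17, 56.5% at -0.25 or more, 12.3% at the loss threshold and 63.8% higher than at 3 h. A distal region of 25 to 50 kb gave 100 identifiers back in both and 6 under the exchanged rule, -1.06 for KO and 74.7% at the loss threshold for rescue at 3 h, and first 25 kb medians of 0.14 in WT, -0.13 in rescue and -0.72 in KO; it shared 66 of its 174 members with the 241. A region of 50 to 100 kb gave 3 under the exchanged rule, -1.09 for KO and -1.27 for rescue at 3 h, 67.8% higher in rescue at 16 h than at 3 h, and first 25 kb medians of 0.55, 0.17 and 0.39 in WT, KO and rescue. Matched library medians left 145 members, with -0.80 for KO and -0.85 for rescue at 3 h (55.9% at the loss threshold); rescue at 16 h had a median of -0.40, 31.0% at -0.25 or more, 24.8% at the loss threshold and 22.1% higher than at 3 h, a first 25 kb of -0.029 and a flank of -0.14. A loss threshold of -1 left 151 members and 30 back in both, with rescue at 3 h at -1.23 and 74.2% at that threshold, and at 16 h 41.7% at -0.25 or more and 10.6% at the threshold. A loss threshold of -0.5 gave 436 members, 147 back in both, 275 in neither and 20 exchanged, with KO at 3 h at -0.87, rescue at 3 h at -1.03 and 91.5% at that threshold, rescue at 16 h at -0.13, 58.5% at -0.25 or more and 26.6% at the threshold, and first 25 kb medians of 0.092 in KO and 0.32 in rescue. The 109 members with continuous signal had a first 25 kb of 0.52 in WT and a rescue median of -0.17 at 16 h. Of members whose rescue mock lay within 1.5 times of both others, an alternative chosen after seeing the data, 9.70% were at the loss threshold in rescue at 16 h and 62.4% were higher than at 3 h. Depth limits single members most in KO at 3 h, where the lowest distal signal was 7 steps; no interval is given because coverage steps are not reads.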
